A study of Homo sapiens with 240 samples.

Results

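The proteasome genes were taken by name: every protein-coding gene of the 5 tables whose symbol begins with PSMA, PSMB, PSMC, PSMD, PSME, PSMF or PSMG, and that reached 1 TPM (a level scaled by transcript length and by the total of the library) in at least 3 libraries of its table. Of 27234 genes listed in each table, 49 carry such a symbol, and 43 of these passed the level filter in every table, among 13317 to 13746 genes that passed in all. The 43 include PSMC3IP, a recombination factor that shares the letters of the ATPase genes but is not a part of the proteasome. It was kept because the rule takes it, and it is marked as such below. The rule takes names and levels, not measured changes, but it was set with earlier results of these data known.

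All 240 libraries, in 80 groups of 3, were made from HEK 293T, an established human line of embryonic kidney origin. In the AMPK table, AMPK WT and AMPK KO cells received DMSO (0 h) or 1 of 4 compounds for 2, 4, 8 or 16 h: 991, which activates AMPK directly, CCCP, which uncouples mitochondria, or phenformin or rotenone, which block respiratory complex I. In the FNIP1 table, both arms were FNIP1 knockout cells that had been given back a FNIP1 cDNA, either WT FNIP1 or SA5, in which 5 AMPK phosphosites were changed to alanine, and they received DMSO or 991 for 2 to 16 h. TFEB+TFE3 WT and TFEB+TFE3 knockout (DKO) cells, ESRRA WT and ESRRA knockout cells, and cells given control siRNA (siControl) or PGC1A siRNA (siPGC1A) received DMSO or 991 for 2, 4, 8, 16 or 24 h. DMSO libraries exist only as 0 h groups, so in every treated comparison the compound and the time in culture cannot be told apart. Doses and the number of clones behind each knockout are not given in the sources used here, and nothing says that the 3 libraries of a group came from separate cultures, so p-values measure the spread between these libraries, which may be technical.

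The proteasome is the protease that degrades proteins tagged with ubiquitin. Its 20S core is a barrel of outer alpha rings (PSMA genes) and inner beta rings (PSMB genes), and 3 of the beta subunits, PSMB5, PSMB6 and PSMB7, carry the cutting sites. The 19S cap recognises and unfolds substrates with a ring of ATPases (PSMC genes) and non-ATPase subunits (most PSMD genes). PSMG proteins and PSMD5, PSMD9 and PSMD10 are chaperones of assembly that leave the finished particle, PSME proteins are alternative activators, and PSMF1 is an inhibitor of the core. When proteasome activity is short, the transcription factor NFE2L1 is known to raise the subunit genes together.

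Summed TPM over all listed genes lay between 396341 and 449208 per library, and the number of reads behind a TPM is unknown. The arms were checked by their target genes. PRKAA1, a catalytic subunit of AMPK, was at 2.15 to 3.73 TPM in AMPK KO and 6.03 to 10.6 TPM in AMPK WT libraries. The other catalytic subunit, PRKAA2, overlapped, at 2.55 to 4.87 TPM in KO and 3.77 to 7.40 TPM in WT libraries. PPARGC1A was at 0.015 to 0.107 TPM in siPGC1A and 0.254 to 0.484 TPM in siControl libraries. In both arms it lay under the 1 TPM of the level filter, so this check rests on low values. ESRRA was at 4.44 to 8.46 TPM in ESRRA knockout and 8.01 to 12.7 TPM in ESRRA WT libraries. TFEB and TFE3 RNA overlapped between the TFEB+TFE3 arms, which checks nothing where a deletion leaves the transcript. FNIP1 was at 129 to 290 TPM in the libraries of the ESRRA and PGC1A tables but at 2.08 to 7.17 TPM in those of the AMPK and TFEB tables. In SA5 libraries FNIP1 ranged from 5.47 to 195 TPM. The first DMSO library (5.47 TPM) and the first library of 991 at 8 h (45 TPM) were the low ones, they go against their label, and results of the FNIP1 table are given with and without them. Of 6 adult kidney markers all stayed under 1 TPM in every library (summed level 0.016 to 0.713 TPM), as did the 3 endothelial markers (at most 0.182 TPM summed) and 4 of 5 blood markers (0.483 to 2.84 TPM summed). Embryonic kidney markers summed to 0.64 to 8.29 TPM, with WT1 the highest, and fibroblast markers to 1.77 to 8.18 TPM, with COL1A1 the highest.

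In untreated AMPK WT cells the most abundant members were subunits of the core. Not all of the core stood so high, with PSMB2 at 60.9, 59.7 and 58.1 TPM and PSMA5 at 45.8, 44.9 and 46.1 TPM. PSMB4 was at 371, 378 and 360.5 TPM in the 3 libraries, PSMA4 at 371, 357 and 367 TPM and PSMA7 at 304, 302 and 306 TPM, and the libraries of PSMB4 and PSMA4 overlapped while PSMA7 lay below both. The beta subunit PSMB1 came next at 255, 263 and 264 TPM. Of the catalytic subunits, PSMB5 was at 248, 239 and 238 TPM, PSMB6 at 196, 191 and 192 TPM and PSMB7 at 184, 183 and 185 TPM. At the other end stood PSMB10, a beta subunit of the immunoproteasome, at 17.9, 17 and 17.7 TPM, the nuclear activator PSME4 at 16.3, 17.1 and 16.6 TPM, and the ATPase PSMC1 at 4.23, 3.94 and 3.85 TPM. The other 5 ATPases, with which PSMC1 forms a ring, lay higher in each DMSO library, PSMC6 being the nearest at 21.7, 25 and 24.2 TPM. The authors list 1 transcript per gene, so a level is that of the listed transcript. On GRCh38 the listed transcripts of members described below lie at chr14:23025851-23035220 (PSMB5, minus strand), chr7:1567334-1570032 (PSMG3, minus strand), chr6:3258928-3268066 (PSMG4, plus strand, as listed in the AMPK table) and chrX:108084205-108091644 (PSMD10, minus strand).

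In all, 6 genes of the rule stayed under the filter in all 240 libraries. PSMB8 was listed at 0 in every library and PSMB9 reached at most 0.016 TPM. Both are immunoproteasome subunits in the HLA region, and the tables give 8 copies for each. PSMB3, a constitutive core subunit with 2 copies in the tables, reached at most 0.16 TPM, and the chaperone PSMD5 at most 0.789 TPM. The tissue-restricted PSMA8 and PSMB11 reached at most 0.14 and 0.086 TPM. Since PSMB3 belongs to every core particle and is still listed near 0, a level near 0 in these tables does not by itself show that a gene is silent, and none of the 6 was tested.

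The promoters of 4 members described below are shown: PSMB5 and PSMD3, which fell with each compound at 16 h, PSMG2, which rose with each, and PSMD12. For PSMD12 the response to 991 was called different between TFEB+TFE3 DKO and WT cells, a call lost without replicate 1 or 3. The sequences are the 250 bases before the start site, from RefSeq on GRCh38.p14, written 5′ to 3′ on the strand of the gene. Capitals mark TGACNNNGC (the core of the element bound by NFE2L1 and NFE2L2) and CCAAT (bound by NF-Y), on either strand. A promoter was matched by symbol for 37 of 43 members, and the one nearest to the start of the listed transcript was taken.
PSMB5 (chr14:23035221-23035470, minus strand): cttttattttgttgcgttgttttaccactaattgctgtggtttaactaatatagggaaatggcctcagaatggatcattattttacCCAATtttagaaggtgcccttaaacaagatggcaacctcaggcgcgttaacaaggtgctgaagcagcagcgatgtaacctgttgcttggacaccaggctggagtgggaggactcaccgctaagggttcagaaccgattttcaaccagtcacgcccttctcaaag
PSMD3 (chr17:39980557-39980806, plus strand): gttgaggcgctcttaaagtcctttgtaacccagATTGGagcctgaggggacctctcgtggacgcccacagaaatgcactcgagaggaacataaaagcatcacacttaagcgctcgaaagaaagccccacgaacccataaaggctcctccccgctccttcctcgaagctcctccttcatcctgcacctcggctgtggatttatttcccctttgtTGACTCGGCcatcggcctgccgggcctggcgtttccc
PSMD12 (chr17:67366578-67366827, minus strand): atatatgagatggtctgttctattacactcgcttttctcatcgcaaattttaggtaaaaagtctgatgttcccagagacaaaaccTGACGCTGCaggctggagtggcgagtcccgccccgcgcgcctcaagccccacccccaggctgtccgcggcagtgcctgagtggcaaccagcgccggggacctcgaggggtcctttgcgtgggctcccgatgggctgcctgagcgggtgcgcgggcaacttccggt
PSMG2 (chr18:12658488-12658737, plus strand): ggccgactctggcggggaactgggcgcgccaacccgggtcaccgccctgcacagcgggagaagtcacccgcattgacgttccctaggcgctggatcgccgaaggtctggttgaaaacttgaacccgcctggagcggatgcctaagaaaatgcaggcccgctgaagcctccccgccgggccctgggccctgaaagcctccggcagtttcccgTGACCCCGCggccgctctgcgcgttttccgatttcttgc
PSMD3 and PSMG2, which moved in opposite directions, both hold TGACNNNGC, starting 37 and 39 bases before the start site, and in PSMD12 it starts 165 bases before. PSMB5 holds CCAAT 164 bases before its start, and PSMD3 holds it on the other strand, where the match begins 217 bases before the start. Over windows of 300 bases, from 250 before to 50 after the start, TGACNNNGC was found in 10 of the 37 member promoters (27%) and in 13.3% of 35114 promoters of all genes. CCAAT was found in 17 of 37 (45.9%) against 34.6% of all promoters. TCACGTGA, the palindrome bound by TFEB and TFE3, and TGATGNAA, bound by ATF4, were in none of the 37 member windows, against 0.98% and 3.62% of all promoters. The 10 with TGACNNNGC were PSMC4, PSMD1, PSMD3, PSMD9, PSMD12, PSME1, PSME2, PSME4, PSMG1 and PSMG2. For the members 1 promoter per gene was taken. The promoters of all genes were not limited to 1 per gene or to genes that passed the level filter, so the shares compare unlike sets. A match describes these letters only.

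Most proteasome genes were lower after 16 h of 991, CCCP or phenformin in AMPK WT cells, and the fall built up over the hours. Changes are differences in mean log2(TPM + 1), tested with limma, and a gene rose or fell where its Benjamini-Hochberg adjusted p over all genes was under 0.05. At 16 h of 991, 5 rose and 25 fell among 43 members (11.6% and 58.1%), while of 13617 genes tested 41.9% rose and 26.9% fell. The median change of the members was -0.13 and that of all genes 0.071. With CCCP at 16 h, 5 rose and 29 fell (all genes: 44.1% rose and 26.6% fell), with medians of -0.21 and 0.091. With phenformin, 3 rose and 32 fell (all genes: 45.3% rose and 34.9% fell), with medians of -0.36 and 0.073. With rotenone, 9 rose and 17 fell (all genes: 36.2% rose and 29.2% fell), with medians of -0.069 and 0.025. With rotenone the share of members that fell was 39.5%, the nearest to its background of the 4 compounds. Summed over the 42 proteasome genes without PSMC3IP, the level was 4341, 4446 and 4405 TPM in the DMSO libraries, 4047, 3992 and 3998 TPM after 991, 3693, 3752 and 3777 TPM after CCCP, 3330, 3337 and 3347 TPM after phenformin, and 4221, 4191 and 4193 TPM after rotenone, all at 16 h. None of the treated sums overlapped with the DMSO sums. In such bulk RNA, fewer cells of a kind and less RNA per cell cannot be told apart. The 4 compounds share the same 3 DMSO libraries.

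At 2 h fewer members fell than at 16 h with each compound. With CCCP and with 991 the shares of members at 2 h lay near those of all genes. With rotenone, 20 rose and 12 fell at 2 h (all genes: 24.9% rose and 30.2% fell). With phenformin, 14 rose and 8 fell (all genes: 23.7% rose and 31% fell), with CCCP 9 rose and 11 fell (all genes: 24.2% rose and 32.5% fell), and with 991 2 rose and 6 fell (all genes: 5.94% rose and 11.4% fell). PSMC6 and PSMD14 were chosen as examples after their values were seen. The ATPase PSMC6, at 21.7, 25 and 24.2 TPM in DMSO, was at 30.8, 33 and 30.7 TPM after 2 h of rotenone, a log2 change of 0.40 ± 0.087 (SE, adjusted p = 9.18e-05). PSMD14, the enzyme that removes ubiquitin chains at the cap, went from 56.2, 64.7 and 60.8 TPM to 77.2, 78.2 and 75.8 TPM with rotenone (0.35 ± 0.073 SE, adjusted p = 6.64e-05). Neither gene's groups overlapped, and both also rose at 2 h with phenformin (0.34 and 0.32) and CCCP (0.35 and 0.33). With 991 the values at 2 h were 0.17 and 0.058, and neither passed the test. By 4 h, 12 rose and 15 fell with rotenone (all genes: 30.6% rose and 28.5% fell), 13 rose and 18 fell with phenformin (all genes: 28.3% rose and 37.5% fell), 11 rose and 18 fell with CCCP (all genes: 28.7% rose and 35.3% fell) and 4 rose and 20 fell with 991 (all genes: 27% rose and 18.9% fell). At 8 h the counts were 9 rose and 16 fell with rotenone (all genes: 35.3% rose and 27.3% fell), 9 rose and 26 fell with phenformin (all genes: 36.8% rose and 36% fell), 7 rose and 23 fell with CCCP (all genes: 35.2% rose and 29.8% fell) and 5 rose and 22 fell with 991 (all genes: 41.3% rose and 22.7% fell). The early splits depend on the scaling of the libraries. After median-ratio scaling 21 rose and 4 fell at 2 h with rotenone, 22 and 2 with phenformin, 19 and 7 with CCCP, and 3 and 3 with 991, and at 4 h 18 rose and 7 fell with phenformin and 14 and 11 with CCCP. After quantile normalization they were 16 and 13 with phenformin and 16 and 14 with CCCP at 4 h, 8 and 18 with 991 and 13 and 14 with rotenone at 8 h, and 10 and 20 with 991 at 16 h. With median-ratio scaling, 991 at 8 h gave 2 and 30. Member counts after rescaling, here and below, stand without the shares of all genes under the same scaling. The shares printed are those before rescaling, which moves all genes, so they are no background for the rescaled counts.

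**Figure D1:**
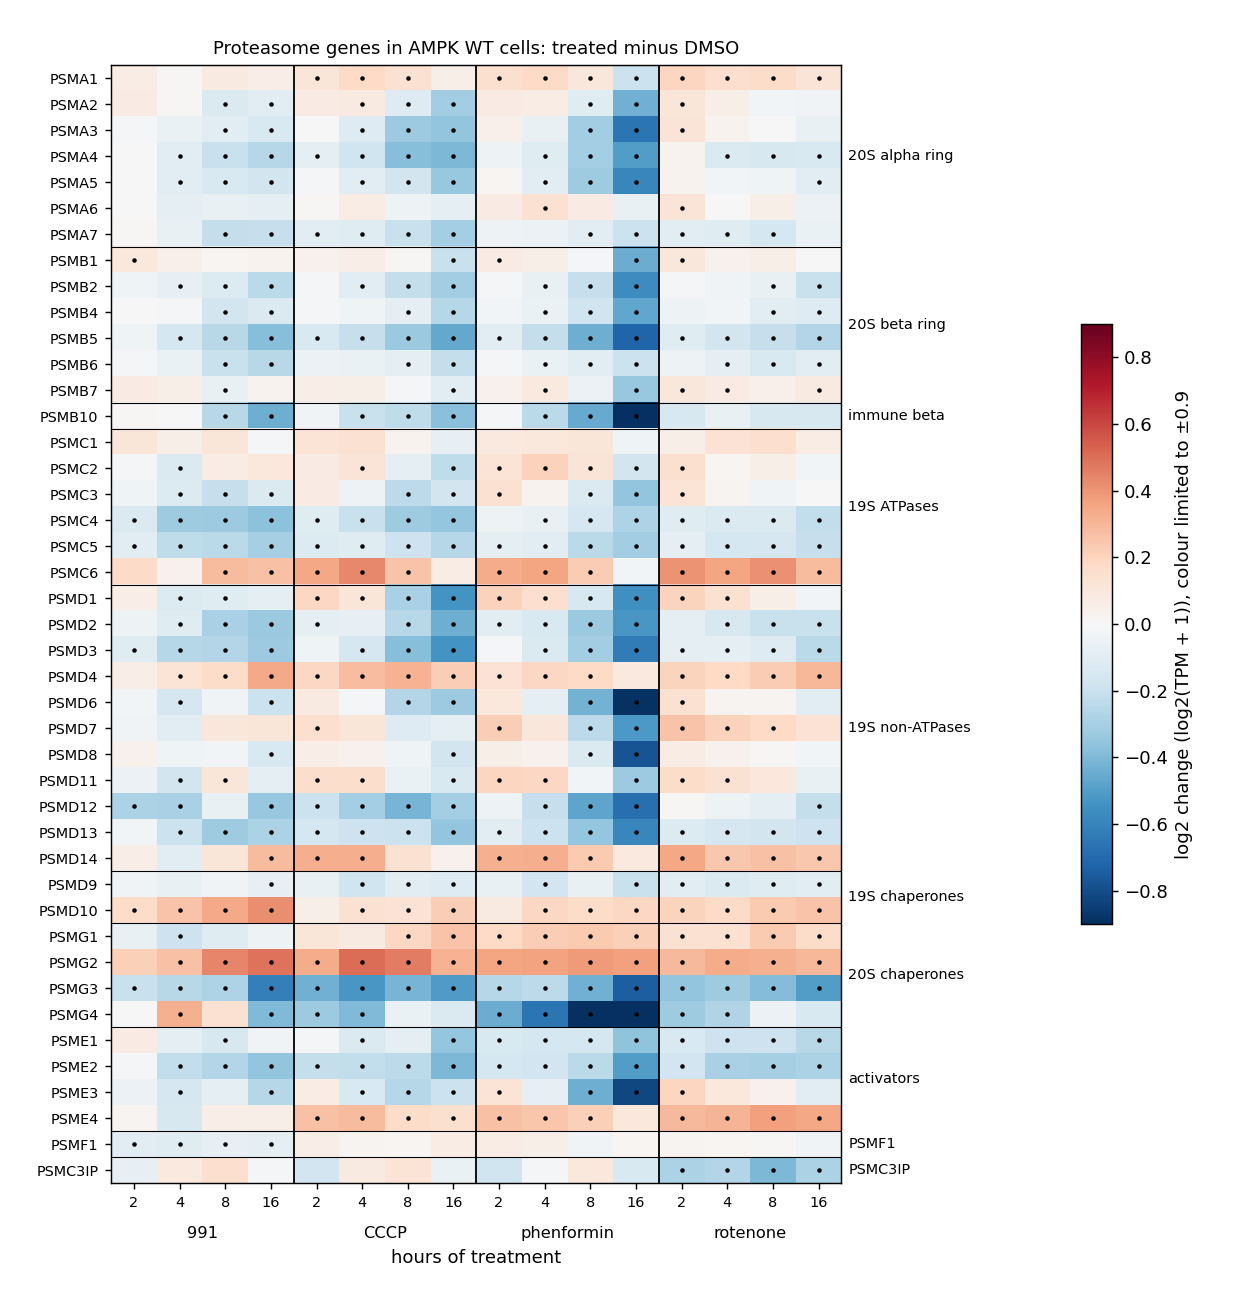
Log2 change (difference in log2(TPM + 1) from DMSO) of the 43 members in AMPK WT cells, 1 row per gene grouped by role and 1 column per compound and time in hours. Red is higher and blue lower than DMSO, colours stop at 0.9 in either direction, and a dot marks an adjusted p under 0.05. Most rows turn blue towards 16 h of phenformin, where 32 of 43 fell, while the rows of PSMG2 and PSMD10 are red under each compound at 16 h.

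In the 20S core, no alpha or beta ring gene rose at 16 h with 991, CCCP or phenformin. Of 13 alpha and beta ring genes, 9 fell with 991, 11 with CCCP, 12 with phenformin and 6 with rotenone, where 2 rose. Over all genes, 41.9% rose and 26.9% fell with 991, and 44.1% rose and 26.6% fell with CCCP. With phenformin 45.3% of all genes rose and 34.9% fell, and with rotenone 36.2% rose and 29.2% fell. PSMB5, the subunit with chymotrypsin-like activity and the target of bortezomib, was at 248, 239 and 238 TPM in DMSO. It was at 187, 184 and 186 TPM after 16 h of 991, 175, 175 and 175 TPM after CCCP, 147, 146 and 146 TPM after phenformin and 199.9, 204 and 200.3 TPM after rotenone. No treated library reached the lowest DMSO library. The log2 changes were -0.38 ± 0.033 (SE, adjusted p = 1.08e-16) with 991, -0.46 ± 0.033 with CCCP, -0.72 ± 0.033 with phenformin and -0.26 ± 0.033 with rotenone, and each passed the test. The other catalytic subunits had smaller changes. PSMB6, with caspase-like activity, fell with each compound (-0.25 with 991, -0.21 with CCCP, -0.19 with phenformin and -0.099 with rotenone), but with rotenone the call was lost after quantile normalization and with phenformin the value under that setting was 0.00046. PSMB7, with trypsin-like activity, fell with CCCP (-0.10) and phenformin (-0.34), was called higher with rotenone (0.081, not after median-ratio scaling) and did not pass with 991 (0.028, but 0.12 and called after quantile normalization). After quantile normalization the PSMB7 value with CCCP was 0.010.

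PSMB10, which replaces PSMB7 in immunoproteasomes, was at 17.9, 17 and 17.7 TPM in DMSO and 8.91, 8.88 and 9.08 TPM after 16 h of phenformin, with no overlap. Its log2 change was -0.90 ± 0.076 (SE, adjusted p = 5.98e-18) with phenformin, -0.44 ± 0.076 with 991 and -0.38 ± 0.076 with CCCP, all called, and -0.14 ± 0.076 with rotenone, which did not pass, but did after quantile normalization (-0.22). The partner subunits PSMB8 and PSMB9 were listed at or near 0. Of the 10 genes listed with the immunoproteasome for interferon signalling and antigen display, 6 passed the level filter. Those named were chosen after their values were seen. With rotenone 5 of these 6 fell, among them B2M (-0.26), the light chain of HLA class I. With phenformin 2 fell, HLA-B (-0.33) and HLA-C (-0.28). With 991, B2M (-0.15) and IRF1 (-0.29) fell, and with CCCP 4 of the 6 fell. Of all genes 29.2% fell with rotenone, 34.9% with phenformin, 26.9% with 991 and 26.6% with CCCP. Genes of this short list that did not fall are not described here.

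The 19S cap was split. Of its 17 ATPase and non-ATPase genes, 3 rose and 9 fell with 991 at 16 h (all genes: 41.9% rose and 26.9% fell) and 1 rose and 12 fell with CCCP (all genes: 44.1% and 26.6%). With phenformin 0 rose and 13 fell (all genes: 45.3% and 34.9%), and with rotenone 3 rose and 6 fell (all genes: 36.2% and 29.2%). PSMD3, a scaffold subunit of the lid, went from 119.6, 125 and 120.5 TPM in DMSO to 85.5, 84.6 and 80.4 TPM with CCCP, a change of -0.54 ± 0.032 (SE, adjusted p = 7.83e-25). PSMD1, a large base subunit that docks ubiquitin receptors, went from 71.3, 71.2 and 69.3 TPM to 47.3, 48.2 and 49.6 TPM with CCCP and 48, 46.9 and 48.5 TPM with phenformin, but to 68.1, 64.9 and 67 TPM with 991 and 70.6, 68.9 and 68.6 TPM with rotenone. The PSMD1 changes were -0.54 and -0.55, both called, against -0.082 and -0.026, neither called.

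The lid subunits PSMD6 and PSMD8 stood out with phenformin. PSMD8 was at 128, 144 and 143 TPM in DMSO and 81, 79.8 and 79.7 TPM after phenformin, and PSMD6 went from 97, 111 and 105 TPM to 57.4, 55 and 54.8 TPM. Their changes were -0.78 ± 0.033 (SE, adjusted p = 3.84e-34) and -0.89 ± 0.057 (SE, adjusted p = 8.00e-24). With rotenone PSMD8 stayed at 136, 138 and 133 TPM, within the range of its DMSO libraries. In the other direction, PSMD4, a ubiquitin receptor of the cap, rose with 991 to 145, 143 and 142 TPM from 109.9, 114 and 114 TPM (0.34 ± 0.042 SE, adjusted p = 6.84e-11), with rotenone (0.30) and with CCCP (0.22). With phenformin its change was 0.087 and did not pass. PSMD14 rose with 991 (0.28) and PSMC6 with 991 (0.27, not called after median-ratio scaling) and rotenone (0.29). The ATPase PSMC4 fell from 73.1, 73.4 and 70.9 TPM to 57.7, 55 and 54.9 TPM with 991 (-0.37 ± 0.027 SE, adjusted p = 1.34e-19).

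The 4 chaperones of core assembly went in different directions. PSMG1 and PSMG2 work as a pair, as do PSMG3 and PSMG4, in building the alpha ring. PSMG2 rose from 17.8, 22.3 and 20.8 TPM in DMSO to 28.1, 29.2 and 29.1 TPM after 16 h of 991 (0.49 ± 0.082 SE, adjusted p = 3.20e-07). The first DMSO library was the lowest of the 3, and no library with 991 overlapped with DMSO. PSMG2 also rose with CCCP (0.31), phenformin (0.37) and rotenone (0.30). Its partner PSMG1 rose with CCCP (0.26), phenformin (0.21, not called after median-ratio scaling) and rotenone (0.17), and was at -0.042 with 991, not called, but called lower after median-ratio scaling (-0.12) and without replicate 1 (-0.12).

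PSMG3 fell with each compound at 16 h, from 101.5, 96.4 and 103 TPM to 68.8, 60.6 and 66.7 TPM with 991 and 61.3, 60.8 and 56.5 TPM with phenformin. Its changes were -0.61 ± 0.049 (SE, adjusted p = 7.05e-18) with 991, -0.51 ± 0.049 with CCCP, -0.74 ± 0.049 with phenformin and -0.50 ± 0.049 with rotenone. PSMG4 gave the largest fall of any member at 16 h. It went from 22, 23.1 and 24.2 TPM in DMSO to 19, 15.2 and 16.1 TPM at 2 h of phenformin, 16.8, 13 and 13.4 TPM at 4 h, 13.6, 8.61 and 8.87 TPM at 8 h and 5.88, 5.40 and 5.91 TPM at 16 h, where the change was -1.84 ± 0.10 (SE, adjusted p = 6.98e-27). With 991 PSMG4 first rose, to 32.2, 26.5 and 29.1 TPM at 4 h (0.32 ± 0.10 SE, adjusted p = 0.00813), and then fell to 16.6, 16.9 and 18.5 TPM at 16 h (-0.40 ± 0.10 SE, adjusted p = 5.45e-04). At 16 h of CCCP and rotenone its changes were -0.13 and -0.13, neither called, although with CCCP it was called lower after either rescaling (-0.24). The transcript listed for PSMG4 differs between tables. The plot of levels over time shows these courses.

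**Figure D2:**
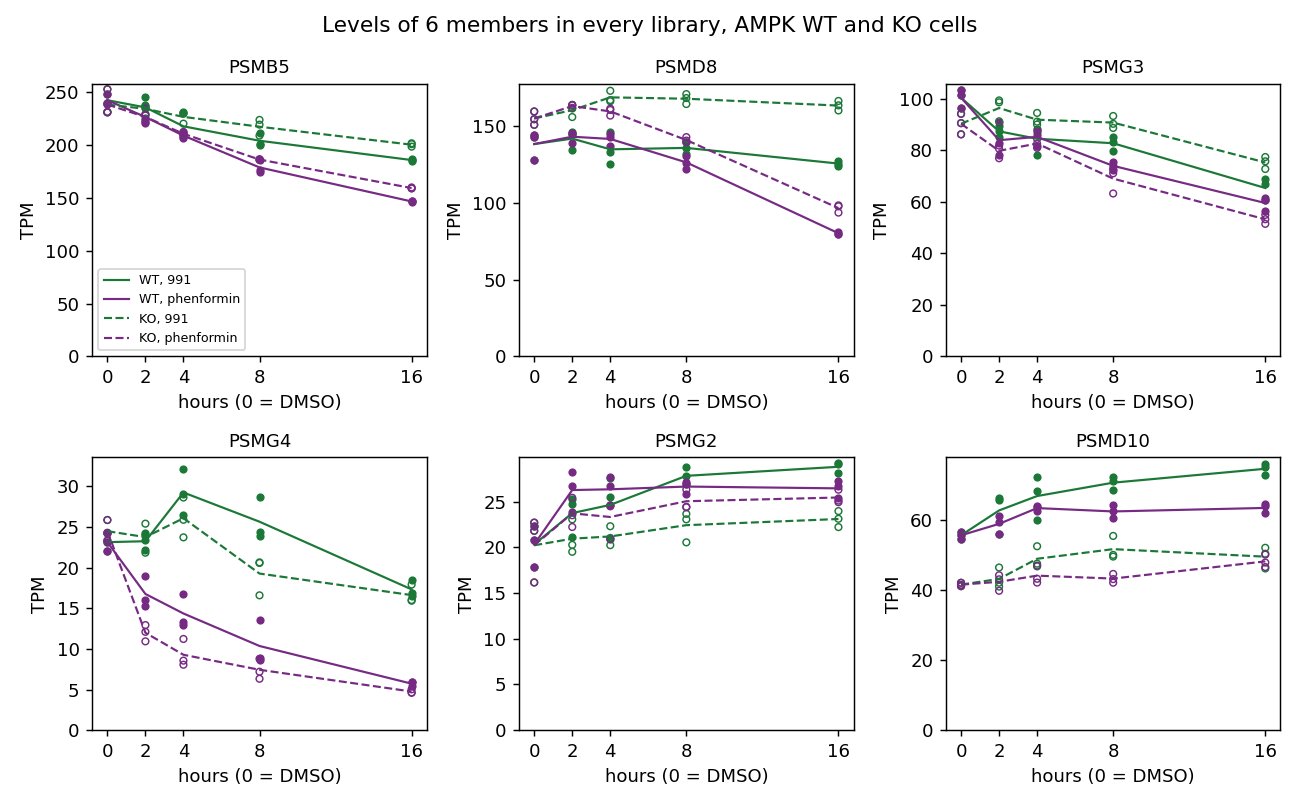
Levels in TPM (vertical axis, from 0) of 6 members against hours of treatment, where 0 is the DMSO group. Each point is 1 library and lines join the means of 3, filled points and solid lines are AMPK WT, open points and dashed lines AMPK KO, green is 991 and purple phenformin. PSMG4 falls under 6 TPM by 16 h of phenformin in both arms, and PSMD10 lies higher in WT than in KO libraries throughout.

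Of the chaperones of the cap, PSMD10 (gankyrin) rose with each compound at 16 h, from 54.8, 55.7 and 56.6 TPM to 76.1, 75.1 and 72.9 TPM with 991 (0.42 ± 0.051 SE, adjusted p = 4.51e-11). Its other changes were 0.22 with CCCP, 0.26 with rotenone and 0.19 with phenformin, the last not called after median-ratio scaling. PSMD9 fell with each, by small amounts (-0.076 with 991, -0.12 with CCCP, -0.20 with phenformin and -0.092 with rotenone). Leaving out a replicate number ended the PSMD9 call with 991, CCCP and rotenone.

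Among the activators, PSME1 and PSME2, the interferon-induced PA28 alpha and beta chains, fell together with CCCP (-0.35 and -0.40), phenformin (-0.36 and -0.51) and rotenone (-0.25 and -0.29). With 991 PSME2 fell (-0.36) and PSME1 did not pass (-0.033). PSME3, the nuclear PA28 gamma, went from 74.1, 91.7 and 84.7 TPM to 46.4, 47.5 and 46.7 TPM with phenformin (-0.82 ± 0.047 SE, adjusted p = 3.36e-26) and also fell with 991 (-0.26) and CCCP (-0.19), but not with rotenone (-0.094, not called, and -0.12 and called after median-ratio scaling). PSME4 (PA200) rose with rotenone from 16.3, 17.1 and 16.6 TPM to 22.5, 21 and 20.9 TPM (0.34 ± 0.068 SE, adjusted p = 9.23e-06). Its rise with CCCP (0.15) was lost after either rescaling, and the values with 991 (0.054) and phenformin (0.098) did not pass. The inhibitor PSMF1 fell slightly with 991 (-0.086, not called without replicate 2) and passed with no other compound at 16 h as reported. After rescaling it was called lower with phenformin (-0.075 by median ratio and -0.12 by quantiles) and with rotenone (-0.092 by quantiles). PSMC3IP fell with rotenone only (-0.28), and whether its response differs between the compounds was not tested.

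A further 33 genes of the ubiquitin and proteasome pathway passed the level filter beside the members. Of these, 15 rose and 8 fell with 991 at 16 h (all genes: 41.9% rose and 26.9% fell). With CCCP 14 rose and 13 fell (all genes: 44.1% and 26.6%). With phenformin 16 rose and 11 fell (all genes: 45.3% and 34.9%), and with rotenone 14 rose and 9 fell (all genes: 36.2% and 29.2%). Apart from the falls with CCCP, these shares lay near those of all genes. NFE2L1, the factor that raises subunit genes, went from 35.8, 32.2 and 33.7 TPM to 48.8, 48.6 and 48.1 TPM with 991 and 66.5, 67.5 and 69.6 TPM with phenformin. Its changes were 0.51 ± 0.039 (SE, adjusted p = 7.97e-19) with 991, 0.53 ± 0.039 with CCCP, 0.98 ± 0.039 with phenformin and 0.29 ± 0.039 with rotenone, so its RNA rose with each compound. Protein and activity of NFE2L1 were not measured here, and whether it acts on the members in these cells was not tested. NGLY1, which removes sugars from NFE2L1, rose from 7.67, 11 and 9.51 TPM to 24.1, 25.6 and 26.1 TPM with phenformin (1.35) and also with 991 (0.89), CCCP (1.03) and rotenone (1.06). DDI2, the protease that cuts NFE2L1, fell with CCCP (-0.44), phenformin (-0.31) and 991 (-0.18, lost without any 1 of the replicate numbers), and did not pass with rotenone (-0.14), where it was called lower after quantile normalization (-0.24) and with only the groups compared.

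NFE2L2, the factor of the oxidative response, rose with phenformin (0.93) and by less with 991 (0.27), CCCP (0.33) and rotenone (0.30). PAAF1, which binds the ATPases during assembly of the cap, went from 7.97, 9.37 and 9.73 TPM to 22.1, 22.3 and 22.3 TPM with CCCP (1.22 ± 0.098 SE, adjusted p = 3.46e-18). POMP, which matures the core, fell with each compound (-0.13 with 991, not called after quantile normalization, -0.30 with CCCP, -0.32 with phenformin and -0.16 with rotenone). The ubiquitin receptor ADRM1 fell with CCCP (-0.24) and passed with no other compound, although after median-ratio scaling it also fell with 991 (-0.16) and phenformin (-0.17). The small cap subunit SEM1 fell with CCCP (-0.17) and phenformin (-0.22), both lost after quantile normalization. Of factors that deliver substrates, the segregase VCP fell with phenformin from 129.9, 134 and 127 TPM to 66.5, 66.1 and 65.3 TPM (-0.97), its adaptor UFD1L fell with 991 (-0.60) and CCCP (-0.73), and the shuttle UBQLN2 fell with phenformin (-1.43). ZFAND2A, a stress-induced partner of the cap, rose with phenformin from 10.6, 11.5 and 11.4 TPM to 32.5, 31.2 and 32.2 TPM (1.44).

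The comparison of AMPK KO with AMPK WT cells asked how far these responses need AMPK. In AMPK KO cells at 16 h, 9 rose and 13 fell with 991 (all genes: 34.8% rose and 27.1% fell), 10 rose and 21 fell with CCCP (all genes: 39.6% rose and 29.3% fell), 4 rose and 29 fell with phenformin (all genes: 41.2% rose and 37.7% fell) and 7 rose and 22 fell with rotenone (all genes: 35.3% rose and 27.9% fell). After median-ratio scaling the CCCP counts were 3 and 23. The difference of responses, KO minus WT, was tested directly. For 991 at 16 h it was higher than 0 for 13 members and lower for none, while over all genes 4.96% were higher and 10% lower, and the median difference was 0.10 for the members and -0.04 for all genes. At 4 h it was higher for 10 and lower for none (all genes: 5.49% were higher and 6.57% lower), and at 8 h for 17 and 1 (all genes: 5.14% were higher and 15.8% lower). For CCCP at 16 h 13 were higher and 2 lower (all genes: 10.5% were higher and 17.7% lower), or 15 and none after median-ratio scaling. For phenformin 14 were higher and none lower (all genes: 3.38% were higher and 10.5% lower), and for rotenone 1 was higher and none lower (all genes: 1.01% were higher and 0.962% lower). The counts rest on few libraries: without replicate 2 or without replicate 3 in every group, 6 and 5 members were called for 991, 9 and 8 for CCCP, and 3 and 3 for phenformin.

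The members with the largest differences for 991 fell by less, or were not called, in AMPK KO cells. PSMC4 went from 81.4, 77.6 and 76.4 TPM in KO DMSO to 74.5, 73.4 and 75.1 TPM after 991, against 73.1, 73.4 and 70.9 to 57.7, 55 and 54.9 TPM in WT cells. The KO minus WT difference in its response was 0.29 ± 0.039 (SE, adjusted p = 4.07e-08). For PSMG3 the response was -0.26 in KO and -0.61 in WT cells, a difference of 0.35 ± 0.070 (SE, adjusted p = 1.74e-04). For PSMB10 it was -0.083 against -0.44, a difference of 0.36 ± 0.11 (SE, adjusted p = 0.0146), not called without replicate 2 or 3. PSMB5 fell in both arms (-0.25 in KO and -0.38 in WT cells), and its difference was 0.13 ± 0.046 (SE, adjusted p = 0.0394).

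With CCCP, PSMG3, PSMB10 and PSMC4 again had the largest differences. PSMG3 was at 94.2, 86.2 and 90.5 TPM in KO DMSO and 99, 90.1 and 95.4 TPM in KO cells with CCCP, while it fell in WT cells from 101.5, 96.4 and 103 to 69.8, 71.8 and 68.9 TPM. The difference was 0.58 ± 0.070 (SE, adjusted p = 7.35e-10). The difference for PSMB10 was 0.52 ± 0.11 (SE, adjusted p = 1.05e-04), and for PSMC4 0.38 ± 0.039 (SE, adjusted p = 1.60e-12). PSME1 fell further in KO than in WT cells, with a difference of -0.23 ± 0.076 (SE, adjusted p = 0.0177), and PSMB7 had a difference of -0.11 ± 0.042 (SE, adjusted p = 0.0408). Neither of these was called after median-ratio scaling.

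With phenformin the falls were large in both arms. PSMG4 reached 4.61, 4.65 and 5.03 TPM in KO cells from 25.9, 23.3 and 24.3 TPM, a change of -2.14 ± 0.10 (SE, adjusted p = 1.60e-30), and its difference from WT cells was -0.30 ± 0.15 and did not pass. The largest differences that passed were PSME2 (0.34 ± 0.081 SE, adjusted p = 0.00227), PSMB6 (0.24 ± 0.038 SE, adjusted p = 6.14e-06) and the alpha subunit PSMA3 (0.20 ± 0.055 SE, adjusted p = 0.00818). The PSME2 call was lost without replicate 3, and that of PSMA3 without replicate 2 or 3. PSMB6 overlapped with its DMSO range in KO cells, with 199, 193 and 192 TPM after phenformin and 192, 189.6 and 183 TPM in DMSO, against 168, 169 and 169 TPM and 196, 191 and 192 TPM in WT cells. With rotenone PSMG3 alone passed (0.25 ± 0.070 SE, adjusted p = 0.0429), and that call was lost after median-ratio scaling and with a pseudocount of 0.1.

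**Figure D3:**
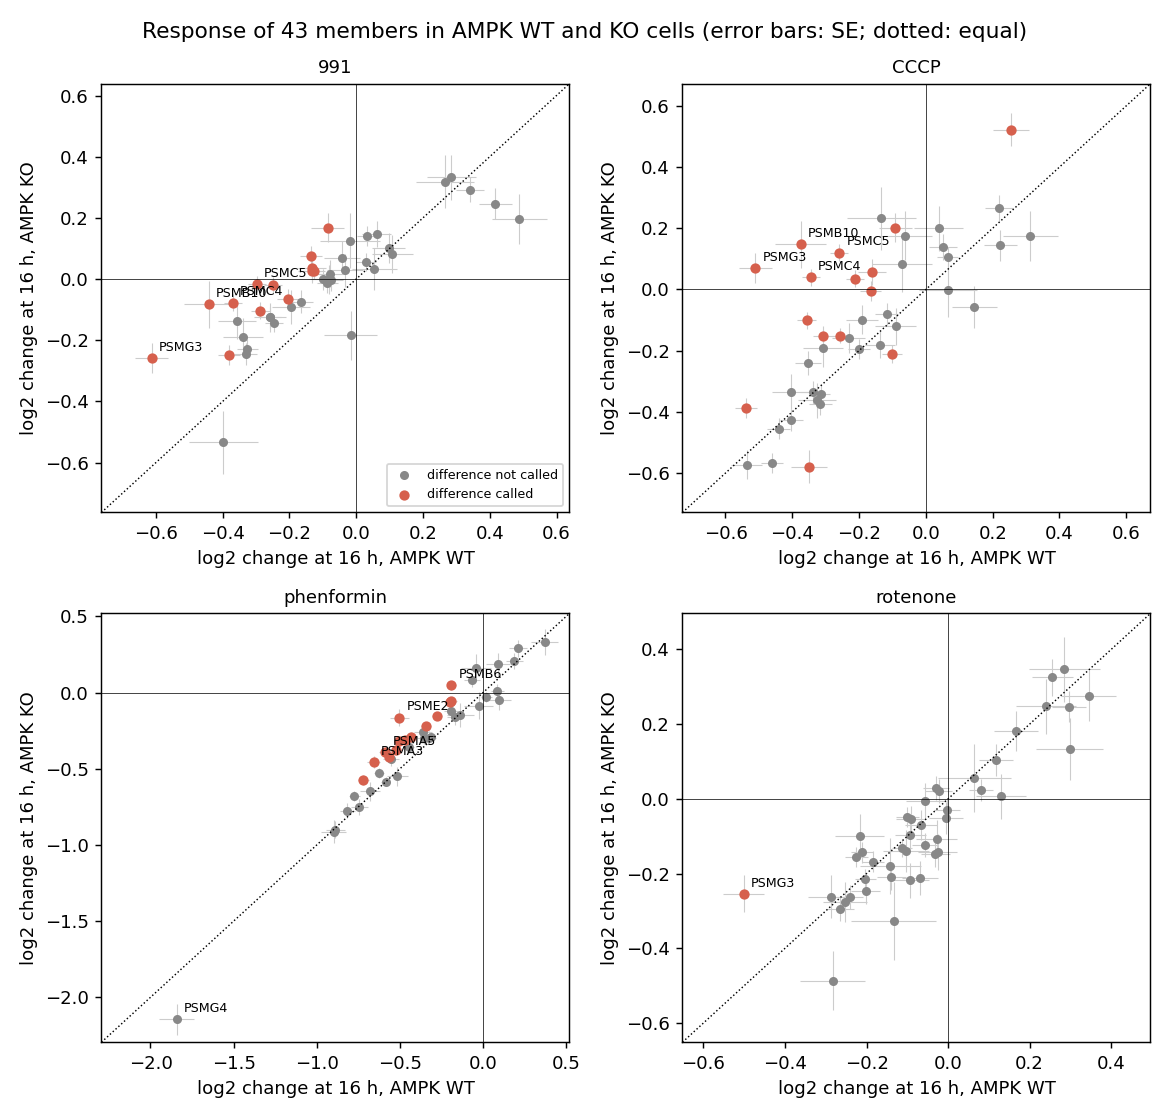
Log2 change at 16 h in AMPK WT (horizontal axis) against AMPK KO cells (vertical axis) for the 43 members, 1 panel per compound. Bars are standard errors, the dotted line marks equal change, and red points are members whose KO minus WT difference passed the test (13 for 991, 15 for CCCP, 14 for phenformin, 1 for rotenone). Red points for 991 and phenformin lie above the dotted line.

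Untreated AMPK KO and AMPK WT cells already differed. Under DMSO, 16 were higher and 6 lower in KO cells, while over all genes 16.2% were higher and 22.7% lower. The split was 23 and 3 after median-ratio scaling. PSMD10 was at 41.2, 41.5 and 42.1 TPM in KO and 54.8, 55.7 and 56.6 TPM in WT cells (-0.41 ± 0.051 SE, adjusted p = 2.64e-10), with no overlap. PSME2 (-0.33 ± 0.057 SE, adjusted p = 2.26e-06) and PSME1 (-0.26 ± 0.054 SE, adjusted p = 6.68e-05) also had lower levels in KO cells. The lid subunit PSMD11 was higher in KO cells, at 54.7, 62.3 and 59.8 TPM against 43.9, 50.7 and 47.1 TPM (0.31 ± 0.045 SE, adjusted p = 1.96e-08), as were the ATPase PSMC5 (0.28 ± 0.027 SE, adjusted p = 3.95e-14) and PSME3 (0.28 ± 0.047 SE, adjusted p = 1.77e-06). The PSME3 call was lost when only these groups were fitted.

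The other 4 tables repeat 991 in other arms, each with its own DMSO libraries and its own normalization, so levels are compared within a table only. In siControl cells at 16 h, 3 rose and 29 fell (all genes: 44.6% rose and 12.4% fell), in ESRRA WT cells 4 rose and 26 fell (all genes: 31.2% rose and 15% fell; 0 and 15 members without replicate 2 in every group), and in TFEB+TFE3 WT cells 4 rose and 21 fell (all genes: 41.1% rose and 17.9% fell). The medians of the members were -0.23, -0.12 and -0.098, and those of all genes 0.17, 0.072 and 0.13. Median-ratio scaling moved the median of all genes in siControl cells from 0.17 to 0.0052 and in TFEB+TFE3 WT cells from 0.13 to 0.00014, and the counts became 1 and 38 in siControl, 0 and 30 in ESRRA WT and 2 and 34 in TFEB+TFE3 WT cells. At 24 h, 1 rose and 33 fell in siControl cells (all genes: 39% rose and 10.9% fell), 1 rose and 21 fell in ESRRA WT cells (all genes: 24.9% rose and 15.4% fell) and 5 rose and 23 fell in TFEB+TFE3 WT cells (all genes: 39.8% rose and 17.2% fell), the last 2 and 34 after median-ratio scaling and 6 and 15 after quantile normalization.

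**Figure D4:**
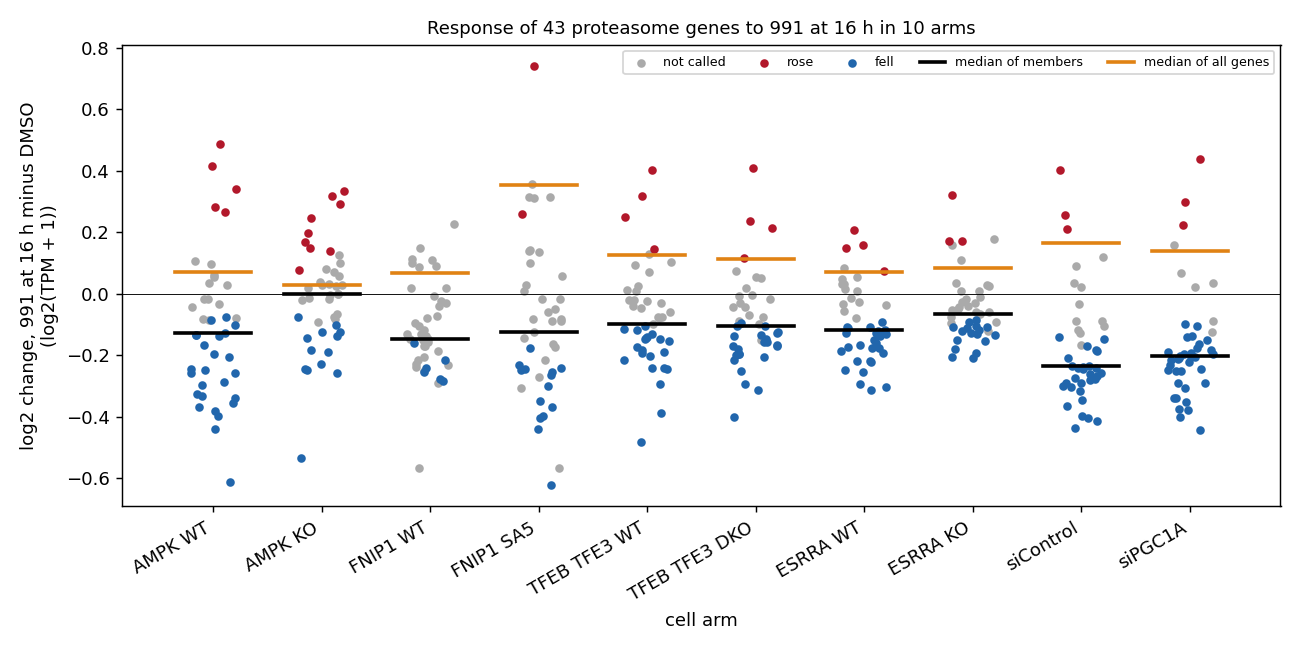
Log2 change of each of the 43 members at 16 h of 991 against DMSO (vertical axis) in the 10 cell arms (horizontal axis). Blue points fell, red rose and grey did not pass, with the median of the members in black and the median of all genes in orange, and all libraries used, so FNIP1 SA5 includes the DMSO library that stands apart. The median of the members lies below that of all genes in each arm.

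Single members can be followed through these tables. PSMB5 fell at 16 h in siControl (-0.29), TFEB+TFE3 WT (-0.24) and ESRRA WT cells (-0.22). PSME3 went from 93.4, 90.9 and 92.3 TPM to 70.1, 68.3 and 65.1 TPM in siControl cells (-0.44 ± 0.031 SE, adjusted p = 4.88e-12) and from 85.2, 82.6 and 83.3 TPM to 65.5, 62 and 63.9 TPM in TFEB+TFE3 WT cells (-0.39 ± 0.033 SE, adjusted p = 5.38e-11). The ATPase PSMC3 went from 115, 104 and 116 TPM to 84.2, 85.1 and 81.2 TPM in siControl cells (-0.41 ± 0.042 SE, adjusted p = 4.76e-09). PSMD10 rose in TFEB+TFE3 WT (0.25), siControl (0.26) and ESRRA WT cells (0.16), the last 2 not after median-ratio scaling. PSMC3IP rose in TFEB+TFE3 WT (0.40) and siControl cells (0.40), where AMPK WT cells gave -0.016, not called.

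The early rise of PSMG4 with 991 was present in each of these tables at 4 h. In TFEB+TFE3 WT cells PSMG4 went from 21.1, 19.7 and 20.6 TPM to 32.1, 29.7 and 27.1 TPM (0.51 ± 0.080 SE, adjusted p = 5.76e-06), and in ESRRA WT cells from 23.1, 25.2 and 24 TPM to 35.6, 31 and 29.5 TPM (0.39 ± 0.079 SE, adjusted p = 2.16e-04), with no overlap in either. In siControl cells the change was 0.32 ± 0.088 (SE, adjusted p = 0.00416) and in FNIP1 WT cells 0.47 ± 0.15 (SE, adjusted p = 0.0261). At 16 h it was 0.13, 0.089 and 0.15 in TFEB+TFE3 WT, siControl and FNIP1 WT cells, not called, and 0.21 in ESRRA WT cells, called but not after either rescaling.

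In TFEB+TFE3 DKO cells at 16 h of 991, 4 rose and 23 fell (all genes: 35.7% rose and 12.5% fell, or 1 and 34 members after median-ratio scaling), and the DKO minus WT difference was higher for 2 and lower for 3 members (all genes: 5.74% were higher and 6.91% lower), a share near that of all genes. PSMD12, a lid subunit, fell in WT cells from 35.4, 38.3 and 34.9 TPM to 26.4, 24.8 and 25.7 TPM and in DKO cells from 37.8, 43.4 and 40.1 TPM to 36.1, 34.6 and 36.5 TPM. The difference was 0.31 ± 0.078 (SE, adjusted p = 0.00824), and it did not pass without replicate 1 or 3. PSMD7, a lid subunit beside PSMD14, fell in WT cells (-0.24) and was at 0.019 in DKO cells, a difference of 0.26 ± 0.057 (SE, adjusted p = 0.00328). PSMD4 rose by less in DKO (0.12) than in WT cells (0.32), a difference of -0.20 ± 0.048 (SE, adjusted p = 0.0052). PSMD2 (-0.18 ± 0.052 SE, adjusted p = 0.0223) and PSMB7 (-0.16 ± 0.049 SE, adjusted p = 0.03, chosen after its value was seen) had lower responses in DKO cells. Without replicate 1 in every group none of these 5 passed.

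Under DMSO, 23 were higher and 3 lower in TFEB+TFE3 DKO than in TFEB+TFE3 WT cells (all genes: 37.6% were higher and 13.7% lower), and the median of the members was 0.14 beside 0.11 for all genes. After median-ratio scaling 14 were higher and 11 lower, with a median of -0.0044, so the tilt of the list depends on the scaling. The base subunit PSMD2 was at 76.7, 70.8 and 73.7 TPM in WT and 113, 104 and 105 TPM in DKO cells (0.54 ± 0.037 SE, adjusted p = 1.37e-12), the ATPase PSMC4 at 57.2, 59.7 and 57.9 TPM and 82.5, 80.4 and 81.9 TPM (0.48 ± 0.047 SE, adjusted p = 1.38e-09), and the ATPase PSMC2 at 45.4, 43.8 and 43.8 TPM and 61.1, 63.4 and 62.4 TPM (0.48 ± 0.036 SE, adjusted p = 1.00e-11). No libraries of the arms overlapped for these 3. PSMG3 (-0.29 ± 0.071 SE, adjusted p = 0.00136), PSMG2 (-0.21 ± 0.077 SE, adjusted p = 0.0213) and PSMB1 (-0.14 ± 0.037 SE, adjusted p = 0.00237) were lower in DKO cells. The PSMG2 call was lost without replicate 1 or 2, and that of PSMB1 without replicate 1 and after quantile normalization.

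In ESRRA knockout cells at 16 h of 991, 3 rose and 17 fell (all genes: 31.5% rose and 12.9% fell). Without 1 replicate number in every group, between 8 and 10 fell, and after median-ratio scaling 29 did. The difference from ESRRA WT cells passed for 1 member, PSMC3IP (0.29 ± 0.082 SE, adjusted p = 0.0499; all genes: 1.31% were higher and 1.53% lower), and that call was lost when any 1 replicate number was left out. Under DMSO none of the members was higher and 23 were lower in ESRRA knockout cells (all genes: 6.71% were higher and 14.7% lower), with a median of -0.11 beside -0.041. The count was 14 without replicate 1 and 15 without replicate 2, with none higher in either. PSMB10 was at 7.28, 7.03 and 8.12 TPM in knockout and 13.3, 12.3 and 11.6 TPM in WT cells (-0.66 ± 0.10 SE, adjusted p = 2.09e-05), and PSMD12 at 33.2, 32 and 31.1 TPM and 42.1, 39.3 and 40.8 TPM (-0.33 ± 0.036 SE, adjusted p = 1.00e-07), each without overlap. PSME2 was lower as well (-0.29 ± 0.056 SE, adjusted p = 4.87e-04). Summed over the 42 genes, the level under DMSO was 3979, 3960 and 3961 TPM in knockout and 4314, 4317 and 4315 TPM in WT cells.

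In siPGC1A cells at 16 h of 991, 3 rose and 34 fell (all genes: 39.2% rose and 12.7% fell). No member passed for the siPGC1A minus siControl difference in limma (all genes: 0.0149% were higher and 0.187% lower), and 5 of 43 had an unadjusted p under 0.05. Under DMSO, 16 were higher and 1 lower in siPGC1A cells (all genes: 14.3% were higher and 9.89% lower; 11 and 1 members without replicate 2 in every group). The lower one was PSMB4, a beta subunit, at 338, 327 and 328 TPM against 435, 415 and 432 TPM (-0.37 ± 0.034 SE, adjusted p = 3.51e-09), and after 16 h of 991 it was at 258, 249 and 256 TPM against 356, 358 and 334 TPM. PSMC5 was higher, at 171, 165 and 162 TPM against 133, 133 and 134 TPM (0.31 ± 0.034 SE, adjusted p = 3.73e-08), as were PSME2 (0.31 ± 0.066 SE, adjusted p = 8.23e-04) and PSMC3IP (0.38 ± 0.041 SE, adjusted p = 4.46e-08).

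**Figure D5:**
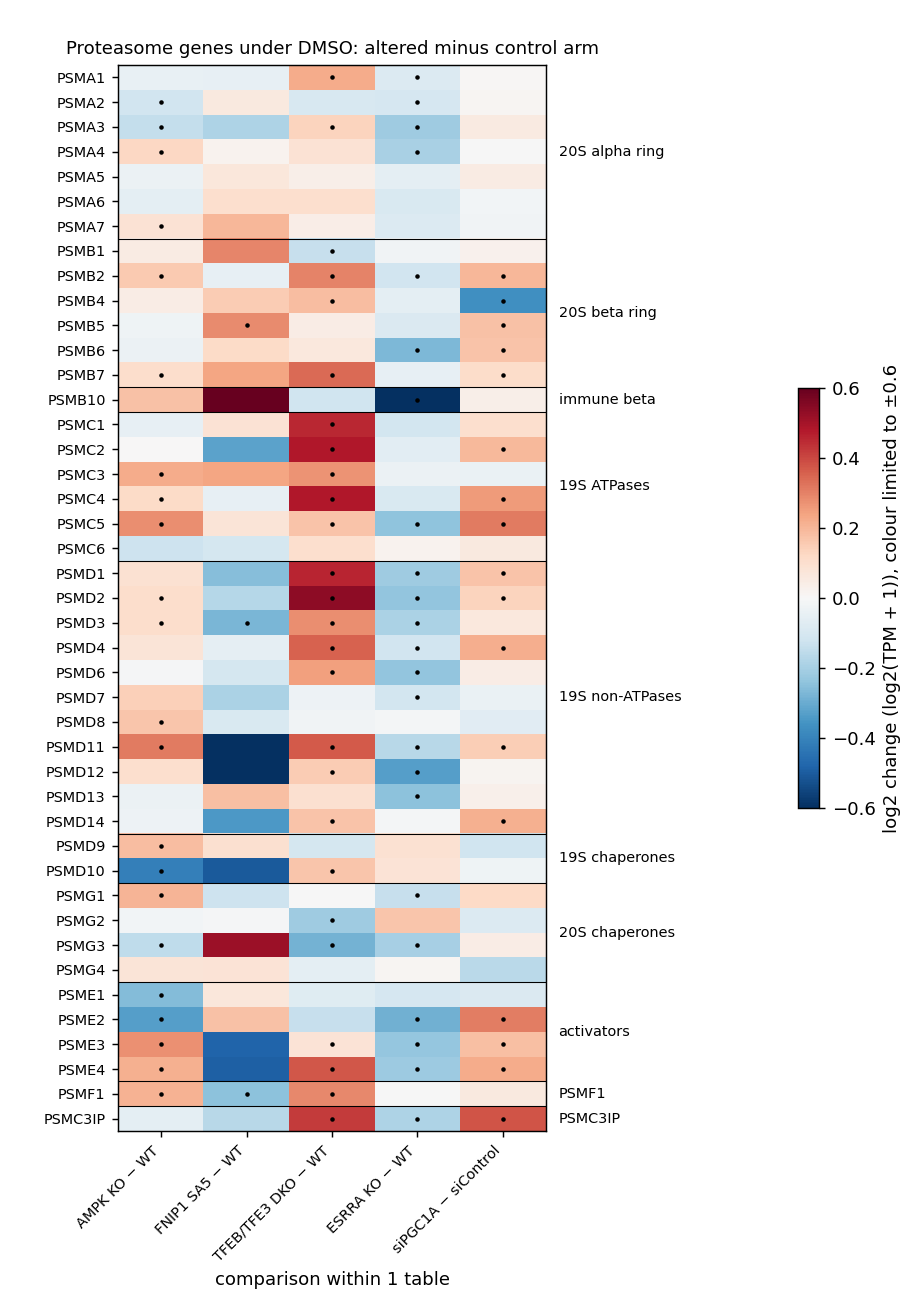
Log2 difference (in log2(TPM + 1)) between the altered and the control arm under DMSO for the 43 members, 1 column per table and 1 row per gene grouped by role. Red is higher and blue lower in the altered arm, colours stop at 0.6, a dot marks an adjusted p under 0.05, and the FNIP1 column includes the DMSO library that stands apart. In the ESRRA column each of the 23 dotted members is lower, and in the siPGC1A column PSMB4 is the dotted member that is lower.

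In the FNIP1 table, the first SA5 DMSO library also stood apart in the members. PSMB10 was at 36.6, 12.3 and 12.3 TPM in the SA5 DMSO libraries and PSMD11 at 12.1, 45.9 and 42.9 TPM, and the summed level of the 42 genes was 5312, 4492 and 4577 TPM. With all libraries, 0 rose and 6 fell in FNIP1 WT cells at 16 h of 991 (all genes: 11.6% rose and 4.87% fell; 1 and 7 members after quantile normalization). Without both doubtful SA5 libraries the same WT changes were tested against a smaller estimated spread, and 2 rose and 26 fell (all genes: 34.2% rose and 19.5% fell). PSMD2 fell by either fit (-0.28 ± 0.059 with all libraries, adjusted p = 0.00158), as did PSMD3 (-0.28 ± 0.086, adjusted p = 0.0274), while PSMD12, with a change of -0.57, had an adjusted p of 0.133 with all and 3.06e-08 without those libraries. In SA5 cells, 2 rose and 14 fell (all genes: 39.2% rose and 5.76% fell), and without those libraries 3 and 27 (all genes: 34.5% and 14.7%). After median-ratio scaling of all libraries 1 rose and 35 fell in SA5 cells. Without replicate 3 in every group, none rose and 3 fell in SA5 cells, and without replicate 2 or without replicate 3 no member was called in FNIP1 WT cells, while without replicate 1 there were 1 and 25.

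No member passed for the SA5 minus WT difference in the response to 991 at 16 h (limma; all genes: 0.00751% were higher and 0.00751% lower), with or without those libraries, and 0 members had an unadjusted p under 0.05 with all and 2 without. Without them 0.105% of all genes were higher and 0.0375% lower. Under DMSO, 1 member was higher and 2 lower in SA5 cells (all genes: 1.69% were higher and 8.64% lower). These were PSMB5 (0.28 ± 0.078), PSMD3 (-0.28 ± 0.086) and PSMF1 (-0.25 ± 0.074), and after median-ratio scaling PSMD3 (0.14) and PSMF1 (0.16) turned positive. That scaling left 1 higher and none lower, but not PSMB5, and quantile normalization gave 1 and 1. Each of the 3 calls was lost when any 1 replicate number was left out and with only these groups fitted, and the PSMB5 value ranged from 0.15 to 0.70 over the alternatives. Without the SA5 libraries that stand apart PSMB5 was called (0.16 ± 0.034, adjusted p = 0.00279), PSMD3 and PSMF1 did not pass, and PSMD4 (-0.23), PSMB6 (-0.17) and PSMC5 (-0.11) were lower, all 3 chosen after their values were seen (all genes: 3.12% higher and 10.5% lower).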

How the data were processed

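Polyadenylated RNA of HEK 293T cells was sequenced, and the authors deposited 5 tables of TPM per gene. Per the submitters' processing notes, FastQC, STAR and HOMER were used with the GRCh38 genome, and versions and settings are not given in the sources used here. TPM keeps no depth, so no count test was run. Samples were grouped by their labels. Where descriptions of the AMPK WT groups with phenformin at 2 h and with CCCP at 4 h disagreed with the other labels, the treatment and time tags were used.

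Within each table, genes that reached 1 TPM in 3 or more libraries were tested on log2(TPM + 1) with limma 3.58.1 (R 4.3.3), with 1 mean per group, all libraries of the table and a trend in the prior variance. P-values were adjusted by Benjamini-Hochberg over all genes tested in a contrast and called under 0.05. Scripts were tested on simulated data. The alternatives tried were quantile normalization, median-ratio scaling, no level filter, 0.1 as the pseudocount, a replicate block, leaving out each replicate number, and fitting only the groups compared. Members, lists and tests were chosen with earlier results of these data known. Genes named are the largest called changes per contrast, up to 5 in each direction for compounds in AMPK WT cells, 3 for AMPK differences and untreated arms and 2 elsewhere, plus catalytic subunits, activators, inhibitor, chaperones and 6 pathway genes. Genes said to be chosen after their values were seen fall outside that rule, and some genes that it takes are not reported here.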

Additional observations from a re-analysis of the deposited data

Results flagged for a closer look

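In the fit as reported, the following members passed limma's test of the difference between 2 arms in their response to the same treatment at 16 h. Values are the altered arm minus the control arm on the log2(TPM + 1) scale. With 991, AMPK KO minus WT was 0.36 for PSMB10, 0.35 for PSMG3 and 0.29 for PSMC4. With CCCP it was 0.58 for PSMG3, 0.52 for PSMB10, 0.38 for PSMC4, -0.23 for PSME1 and -0.11 for PSMB7. With phenformin it was 0.34 for PSME2, 0.24 for PSMB6 and 0.20 for PSMA3, and with rotenone 0.25 for PSMG3. With 991, TFEB+TFE3 DKO minus WT was 0.31 for PSMD12, 0.26 for PSMD7, -0.20 for PSMD4 and -0.18 for PSMD2, and ESRRA knockout minus WT was 0.29 for PSMC3IP. Both arms of each difference have their own DMSO libraries, and the 4 AMPK differences share theirs. PSMG3 and PSMC4 with 991, PSMG3, PSMB10 and PSMC4 with CCCP, and PSMB6 with phenformin kept their call under each alternative tried. Every other call in this list was lost under some alternative. For TFEB+TFE3 the share of members called was near that of all genes, and PSMC3IP is not a part of the proteasome.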

How the results depend on the processing

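There are 3 libraries per group and depth is unknown. Members called for the KO minus WT response to phenformin numbered 14, but 8 after quantile normalization and 8 with only the groups compared. For rotenone 1 was called, and 0 with median-ratio scaling, with a pseudocount of 0.1 or with only the groups compared. For untreated AMPK KO against WT the count was 22, and 12 with only the groups compared. For 991 in FNIP1 WT cells it was 6, and 28 with only those groups or, chosen after seeing the data, without 2 SA5 libraries. The ESRRA difference went from 1 to 0 with no filter on low values or with only the groups compared. Leaving out each replicate number gave 25 to 33 for 991, 31 to 35 for CCCP, 34 to 36 for phenformin and 22 to 28 for rotenone in AMPK WT cells, 5 to 18, 8 to 16, 3 to 12 and 0 to 0 for the KO minus WT responses in that order, and 16 to 22 for untreated AMPK KO cells. For 991 it gave 0 to 26 in FNIP1 WT, 20 to 22 in TFEB+TFE3 WT, 15 to 25 in ESRRA WT and 30 to 31 in siControl cells, and for the differences between arms 0 to 0 (FNIP1), 0 to 3 (TFEB+TFE3), 0 to 0 (ESRRA) and 0 to 0 (siPGC1A). Causes beyond fewer samples were not tested.

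The labels do not say what a replicate number shares. Among AMPK libraries, 582 of 1683 same-numbered pairs had a correlation of deviations over 0.1 (median 0.0514, from -0.193 to 0.693, against a median of -0.0242 for other pairs), so not every pair did, and the numbers were not taken to pair the samples. With the replicate block, called members numbered 31, 34, 37 and 27 for 991, CCCP, phenformin and rotenone, 17, 18, 14 and 1 for the KO minus WT responses, 23 for untreated AMPK KO, 5, 26, 30 and 32 for 991 in FNIP1 WT, TFEB+TFE3 WT, ESRRA WT and siControl cells, and 0, 5, 1 and 0 for their differences. The block changed none of 166 named calls.

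Some values changed sign. With median-ratio scaling these were PSMB7 (-0.055), PSME4 (-0.025) and SEM1 (-0.045) with 991, PSMF1 with CCCP (-0.038) and phenformin (-0.075), and PSMD3 (0.14) and PSMF1 (0.16) in untreated SA5 against FNIP1 WT cells. With quantile normalization these were PSME4 with 991 (-0.054) and phenformin (-0.063), PSMB7 (0.010) and PSMF1 (-0.050) with CCCP, PSMB6 (0.00046), PSMF1 (-0.12) and ADRM1 (0.066) with phenformin, ADRM1 with rotenone (0.037), and PSMF1 in untreated SA5 cells (0.024). Leaving out each replicate number gave -0.12 to 0.026 for PSMG1 with 991, -0.15 to 0.0015 for ADRM1 with phenformin, -0.045 to 0.042 for ADRM1 with rotenone and -0.051 to 0.0028 for PSMF1 with rotenone, where the value without replicate 2 was the one above 0.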
